A study of Homo sapiens with 15 samples.

Results

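The genes described here are 34 factors of ribosome biogenesis and the nucleolus that are widely listed as targets of the transcription factor MYC, out of 26485 gene symbols counted in all. They were taken by symbol from a list drawn up with earlier results of these data known, and all 34 were found in both count tables and passed the filter on low counts in every fit. RNA was sequenced from PSN-1, an established human cell line of pancreatic ductal adenocarcinoma (PDAC). In the first experiment cells received siControl, siMondoA or siMLX, small interfering RNAs that are a control or are directed at MondoA (the gene MLXIP) and at its partner MLX. In the second experiment cells received DMSO, the solvent, or SBI-477, a compound that the labels call a MondoA inhibitor. Every group holds 3 libraries taken after 72 hours, 15 libraries in all. Untransfected cells, a second siRNA per gene and a rescue are not among the groups, so loss of the target and other effects of an siRNA cannot be told apart. The dose of SBI-477 was not stated in these sources, and all values come from 1 cell line.

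Ribosomes are built in the nucleolus. RNA polymerase I copies a long precursor ribosomal RNA, small nucleolar ribonucleoproteins (snoRNPs) guide its methylation and pseudouridylation, and separate sets of assembly factors fold and cut it into the small (40S) and large (60S) subunit before export to the cytoplasm. MYC, paired with MAX, activates many of these factors and binds the E-box CACGTG, a sequence that the MondoA and MLX pair can also recognise.

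Promoter stretches are shown for the members that the siRNA results turn on, so that those with and without an E-box near the start can be compared. Each runs from 75 bases before to 50 bases after a RefSeq transcription start (GRCh38.p14), 5′ to 3′ on the gene's strand, and therefore covers the start of the first exon. LYAR, WDR74, POLR1B and NPM1 have 2 listed starts each, of which 1 is shown. For LYAR the start shown is the 1 whose window holds CACGTG. Capitals mark CACGTG. In the order printed they lie at chr12:6568242-6568366 (minus), chr2:68157813-68157937 (plus), chr6:41921424-41921548 (plus), chr4:4289972-4290096 (minus), chr3:51941855-51941979 (minus), chr11:62839541-62839665 (minus), chr2:112541961-112542085 (plus) and chr5:171387774-171387898 (plus).
NOP2: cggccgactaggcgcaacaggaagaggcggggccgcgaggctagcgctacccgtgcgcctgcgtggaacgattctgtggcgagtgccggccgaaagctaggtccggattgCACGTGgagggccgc
PNO1: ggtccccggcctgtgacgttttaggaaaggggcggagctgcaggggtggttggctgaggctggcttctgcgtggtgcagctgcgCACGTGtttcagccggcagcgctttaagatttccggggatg
BYSL: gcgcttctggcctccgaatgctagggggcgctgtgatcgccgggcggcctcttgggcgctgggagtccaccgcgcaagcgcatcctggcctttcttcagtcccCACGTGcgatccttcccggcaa
LYAR: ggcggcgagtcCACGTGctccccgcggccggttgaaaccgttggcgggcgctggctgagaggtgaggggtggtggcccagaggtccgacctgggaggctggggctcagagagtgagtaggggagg
RRP9: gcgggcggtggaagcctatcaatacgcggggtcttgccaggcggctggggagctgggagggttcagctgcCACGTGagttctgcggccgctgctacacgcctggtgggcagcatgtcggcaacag
WDR74: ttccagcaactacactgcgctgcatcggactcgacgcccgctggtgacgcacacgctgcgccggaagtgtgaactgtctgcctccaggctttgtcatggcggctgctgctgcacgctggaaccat
POLR1B: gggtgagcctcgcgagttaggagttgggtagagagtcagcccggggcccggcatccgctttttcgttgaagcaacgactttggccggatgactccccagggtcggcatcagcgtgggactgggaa
NPM1: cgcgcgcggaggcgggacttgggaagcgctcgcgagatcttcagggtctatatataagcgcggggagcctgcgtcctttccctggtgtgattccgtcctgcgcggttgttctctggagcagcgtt

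The E-box was common near the start of these genes. Of the 34 members, 28 matched the RefSeq promoter table, and 15 of the 28 (53.6%) held CACGTG, which reads the same on both strands, between 250 bases before and 50 bases after a listed start. The same window held it in 10.9% of 15843 protein-coding genes and in 8.77% of all 27305 genes with a listed promoter. The 15 first matches began between 64 bases before and 36 bases after the start, 14 of them within 50 bases of it and 11 downstream of it. They belong to BYSL, DDX21, FBL, GNL2, GNL3, LYAR, MRTO4, MYBBP1A, NOP2, PES1, PNO1, RCL1, RRP9, UTP20 and WDR43. A match describes the sequence and was not tied to binding in these cells.

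Library totals were 11227343 to 14731691 counts in the siRNA experiment and 23315440 to 30480362 counts in the drug experiment. The 34 genes took 0.776 to 1.07% of the counts of an siRNA library and 0.948 to 1.19% of a drug library. Epithelial keratins were present in every library (KRT8 at 532 to 1230 CPM, counts scaled to the library total), and so were 2 of 5 leukocyte markers, CD68 (18.1 to 56.1 CPM) and LYZ (5.65 to 44.5), and 1 of 4 endothelial markers, PECAM1 (8.51 to 20.7). The epithelial marker CDH1 ranged from 1.06 to 39.8 CPM. The fibroblast markers LUM (15.8 to 230 CPM), COL6A3 (13.1 to 56.8) and PDGFRB (3.65 to 33.4) were also present in every library. DCN was at 0 to 14.2 CPM. The other leukocyte markers were at or near 0 (PTPRC at most 0.152 CPM, CD79A at most 0.233, CD3E at 0 in all 15 libraries), as were the other endothelial markers (CLDN5 at most 0.076 CPM, VWF at most 0.38, CDH5 at most 0.444). MLXIP stood at 83.6, 65.8 and 88.7 CPM under siControl and at 22.6, 23.4 and 15.7 under siMondoA, and MLX at 53.4, 58.8 and 53.0 under siControl and at 11.9, 7.15 and 7.70 under siMLX. Each siRNA thus left its target lower in all 3 libraries. Some of the cell type markers moved as well. With siMondoA the epithelial marker CDH1 (2.38 ± 0.37, log2 fold change ± SE, edgeR adjusted p = 0.00215) and the leukocyte marker CD68 (1.06 ± 0.16, 0.00178) rose and the fibroblast marker PDGFRB fell (-1.93 ± 0.24, 0.000782), which is 1 of 6 epithelial, 1 of 2 tested leukocyte and 1 of 4 fibroblast markers. Most epithelial markers went the other way from CDH1 with siMondoA. Of the 6, 4 were below 0, the median was -0.36, and 3 had an unadjusted p under 0.05 by edgeR, CDH1 among them. With siMLX the fibroblast marker DCN rose (2.80 ± 0.37, edgeR adjusted p = 0.0027) and PDGFRB fell (-1.20 ± 0.23, 0.0133). The summed epithelial markers were at 1880 to 2800 CPM under siControl, 1660 to 1990 under siMondoA and 1940 to 2460 under siMLX, and the fibroblast markers at 167 to 262, 93.7 to 157 and 157 to 276. Their part in the members' values was not tested.

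The members spanned a wide range of levels. Per kb of exon, siControl had most of NPM1 (791 ± 84.5 CPM per kb, SD, n = 3), a histone chaperone and nucleolar scaffold, followed by nucleolin, NCL (250 ± 11.8), the methyltransferase fibrillarin, FBL (130 ± 6.49), and nucleostemin, GNL3 (100 ± 10.1). These first 4 places did not overlap between neighbouring genes. At the low end stood UTP20 (8.28 ± 1.77), RCL1 (7.31 ± 1.19) and PPAN (2.67 ± 0.493), and the ranges of UTP20 and RCL1 overlapped. In DMSO the order began with NCL (410 ± 54.0), NPM1 (313 ± 65.3) and FBL (230 ± 42.3), whose ranges overlapped between NCL and NPM1 and between NPM1 and FBL, and PPAN was again lowest (2.52 ± 0.534). The tables of both experiments were normalized separately, so no member is compared between them by level. Of the 34, 32 lay above the median of the tested genes by siControl level and 33 by DMSO level. NPM1 has 45 annotated pseudogenes that carry its name, 56.0% of the exon bases of PPAN are shared with the read-through gene PPAN-P2RY11, and 54.4% of those of NOP2 lie under another gene model on its strand. The counts of these genes are therefore uncertain. So are those of TSR1 and NIP7, of which 20.7% and 20.2% lie opposite SRR and COG8, because the sources used here do not give the strandedness of the libraries.

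**Figure D1:**
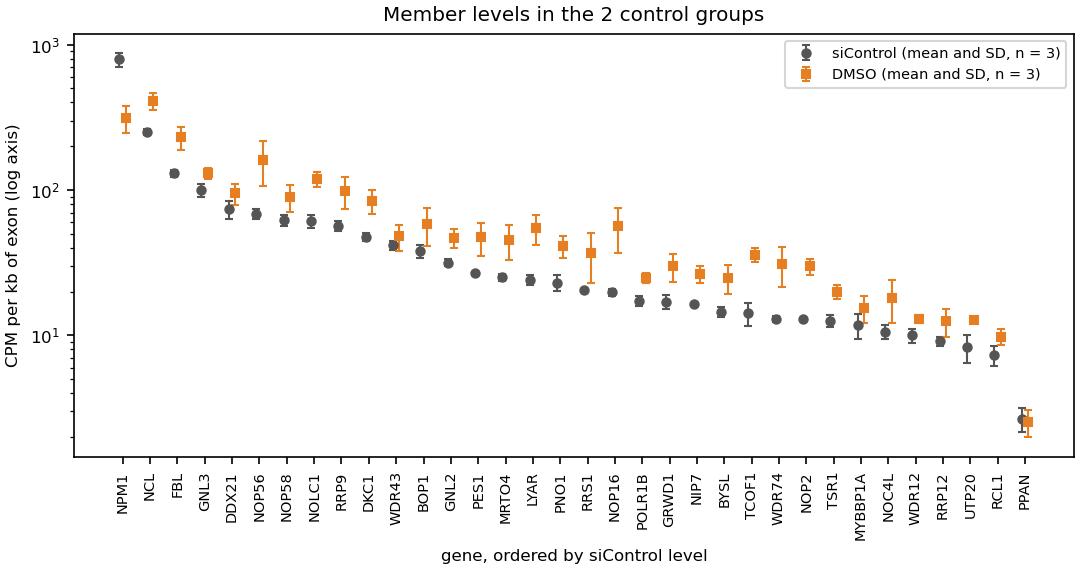
Level of each of the 34 genes in CPM per kb of exon (log axis), mean and SD of 3 siControl libraries (circles) and 3 DMSO libraries (squares), ordered by siControl. NPM1 and NCL lead in both and PPAN is last; the experiments were normalized separately.

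After siMondoA, 4 of the 34 members rose and 2 fell, while 28 did not pass the test. The 4 that rose were NOP2, WDR74, PNO1 and BYSL, all subunit assembly factors, and the 2 that fell were NPM1 and POLR1B. The share called, 17.6%, stood beside 27.2% of all 13001 genes tested (edgeR's quasi-likelihood test, adjusted p under 0.05). Of all genes 14.2% rose and 12.9% fell. The median log2 fold change of the members was 0.12 against 0.0039 for all genes, with 25 members above 0. With 1 library left out, 1 member rose without siControl replicate 1, and 2 rose without siMondoA replicate 2 or 3 or siControl replicate 2. None fell without siMondoA replicate 3 or siControl replicate 2, and 1 fell without siMondoA replicate 2. In 13 members the libraries of the groups did not overlap, 9 with siMondoA higher and 4 with it lower. Of all 13001 genes 47.2% did not overlap (3177 higher and 2958 lower). The authors' deposited table calls 3 members higher after siMondoA (NOP2, WDR74 and PNO1) and 3 lower (POLR1B, RRP9 and NPM1). It calls 3129 of its 13483 genes (1640 higher and 1489 lower). BYSL is not called there (adjusted p = 0.195 in that table). In bulk RNA a change in the share of cells in a state and a change in RNA per cell cannot be told apart. MYC itself stood at 588, 621 and 696 CPM under siControl and 503, 470 and 495 under siMondoA, and fell by 0.38 ± 0.12 on the log2 scale (edgeR adjusted p = 0.0385).

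**Figure D2:**
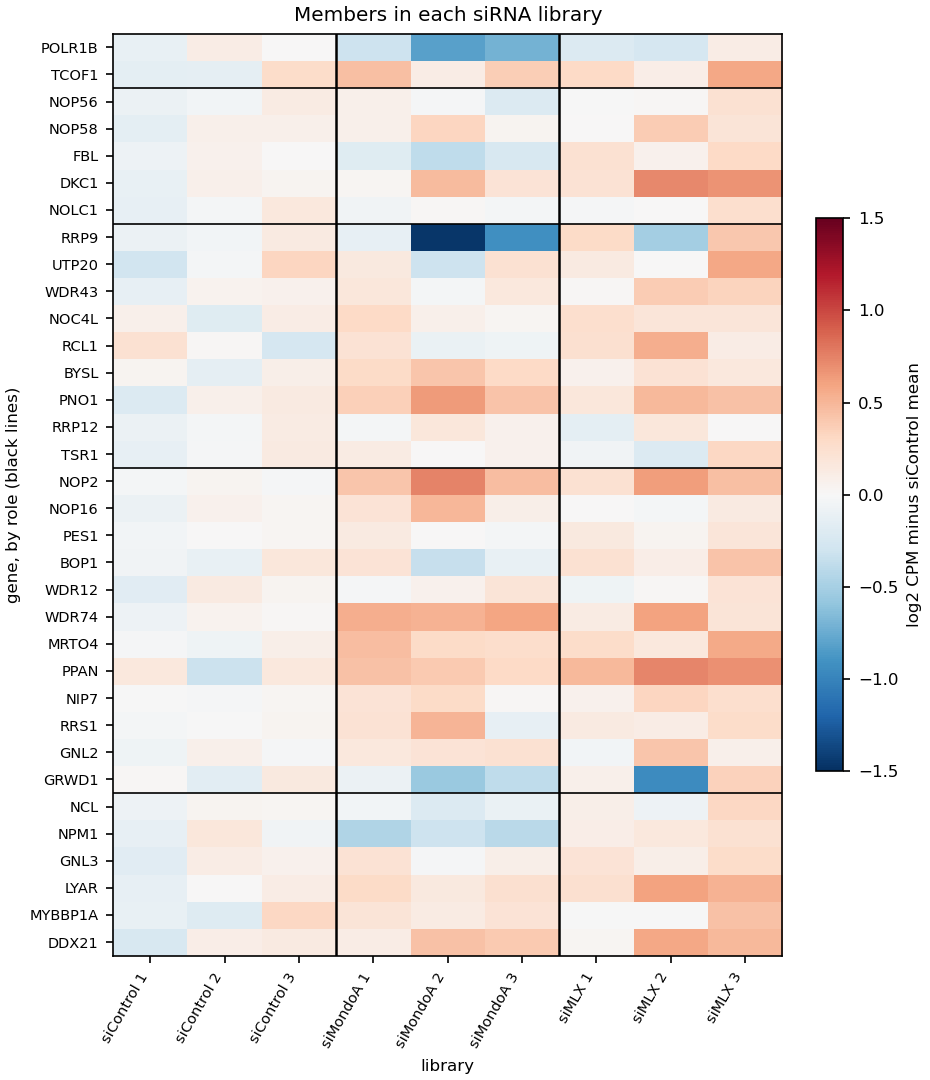
Log2 CPM of each member minus its siControl mean (colour) in the 9 siRNA libraries, with members grouped by role between black lines. POLR1B and NPM1 are low in all 3 siMondoA libraries, RRP9 under siMondoA 2 and 3 and under siMLX 2, and NOP2 and WDR74 are high in all siMondoA libraries.

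Both members of the RNA polymerase I group were measured. POLR1B, the second-largest subunit of the enzyme, stood at 100, 117 and 109 CPM under siControl, at 87.4, 61.5 and 66.4 under siMondoA and at 94.5, 91.4 and 118 under siMLX. All 3 siMondoA libraries were below every siControl library, with replicates 2 and 3 the lowest, whereas the siMLX libraries overlapped siControl. The fall after siMondoA was 0.60 ± 0.15 (SE) on the log2 scale, to 65.9% of control (edgeR adjusted p = 0.0166). The call was lost without siMondoA replicate 2 (0.0577), siMondoA replicate 3 (0.0677) or siControl replicate 2 (0.0668). TCOF1, which encodes treacle, a nucleolar scaffold for ribosomal RNA transcription, was at 145, 147 and 196 CPM under siControl and at 221, 174 and 208 under siMondoA. Its groups overlapped and its difference of 0.31 ± 0.16 did not pass the test (edgeR adjusted p = 0.177).

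None of the 5 snoRNP genes passed the test after siMondoA by edgeR's quasi-likelihood test, and 1 of them, FBL, had an unadjusted p under 0.05. DESeq2 called none of the 5 either. FBL was at 268, 296 and 285 CPM under siControl, 250, 217 and 239 under siMondoA, and 330, 294 and 348 under siMLX. The siMondoA libraries lay below all others, but the difference from siControl, -0.26 ± 0.11, missed the threshold (edgeR adjusted p = 0.0878). NOP56, the most abundant uncalled gene of the group, was at 350, 360 and 405 CPM under siControl and 392, 366 and 321 under siMondoA, with overlapping groups. NOP56 and NOP58, the paired core proteins of the methylating box C/D snoRNPs, differed by -0.05 ± 0.12 and 0.15 ± 0.13. DKC1, the pseudouridine synthase dyskerin, differed by 0.25 ± 0.16, and NOLC1, a chaperone that carries snoRNPs, by -0.02 ± 0.11. The range over the 5 thus ran from -0.26 to 0.25, on both sides of 0.

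Of the 9 small subunit factors, 2 rose after siMondoA and none fell. PNO1, which binds the end of the maturing small subunit RNA, was at 53.2, 64.7 and 67.5 CPM under siControl, 78.5, 95.5 and 82.8 under siMondoA, and 69.0, 86.2 and 83.1 under siMLX. All siMondoA and all siMLX libraries were above the siControl libraries. PNO1 rose by 0.47 ± 0.13 with siMondoA (edgeR adjusted p = 0.0264). That call was lost without siMondoA replicate 2 (0.0901) or 3 (0.0651) or siControl replicate 1 (0.0989) or 2 (0.0656). BYSL, bystin, a factor of late small subunit assembly, was at 33.6, 29.8 and 34.8 CPM under siControl and 39.8, 43.8 and 40.2 under siMondoA. The groups did not overlap and the rise was 0.33 ± 0.11 (edgeR adjusted p = 0.0479), a call that leaving out any 1 of the 6 libraries ended (adjusted p from 0.0598 to 0.164).

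RRP9, a protein of the U3 snoRNP that directs early cuts of the precursor, varied more between libraries than the other small subunit genes. It was at 84.1, 86.4 and 97.6 CPM under siControl, 81.8, 32.4 and 47.2 under siMondoA, and 109, 62.7 and 118 under siMLX. The siMondoA libraries were below siControl, replicate 1 only just, and siMLX replicate 2 was below every siControl library while the other siMLX libraries were above them. The difference with siMondoA, -0.73 ± 0.31, did not pass the test (edgeR adjusted p = 0.10), but passed without siMondoA replicate 1 (-1.17, edgeR adjusted p = 0.00971). The authors' deposited table gives RRP9 a log2 fold change of -0.84 with an adjusted p of 0.00252. With the replicate number as a block RRP9 also passed in edgeR (-0.83, adjusted p = 0.022). The remaining small subunit genes, UTP20, WDR43, NOC4L, RCL1, RRP12 and TSR1, differed by 0.02 to 0.13 and none was called. WDR43, the most abundant of them, was at 159, 179 and 181 CPM under siControl and 194, 169 and 193 under siMondoA, with overlapping groups.

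Of the 12 large subunit factors, 2 rose after siMondoA and none fell, and 10 of the 12 had a log2 fold change above 0. NOP2, which methylates large subunit RNA, was at 59.1, 62.1 and 59.5 CPM under siControl, 80.6, 101 and 83.1 under siMondoA, and 70.4, 93.5 and 82.1 under siMLX. Every siMondoA and siMLX library exceeded every siControl library. NOP2 rose 1.46-fold with siMondoA (0.55 ± 0.13, edgeR adjusted p = 0.0128), and was called after leaving out each of the 6 libraries in turn. WDR74, which takes part in remodelling of the early large subunit, was at 52.3, 57.4 and 56.0 CPM under siControl, 80.6, 79.5 and 83.6 under siMondoA, and 60.3, 83.7 and 63.1 under siMLX. The siMondoA libraries lay close together and above all siControl libraries, while among the siMLX libraries replicate 2 alone reached their level. WDR74 rose 1.47-fold with siMondoA (0.56 ± 0.13, edgeR adjusted p = 0.0125), and missed the threshold without siControl replicate 1 (0.0517). An RNU2-2P small nuclear RNA model covers 4.5% of its exons.

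The other large subunit genes did not pass. PES1, BOP1 and WDR12, which form the PeBoW complex, differed by 0.04 ± 0.09, -0.07 ± 0.15 and 0.08 ± 0.12. GNL2, a GTPase of the late nuclear large subunit and the most abundant uncalled gene here, was at 174, 192 and 180 CPM under siControl and 203, 209 and 213 under siMondoA, without overlap (0.20 ± 0.13, edgeR adjusted p = 0.262). MRTO4, which holds the place of the stalk protein, came nearest to the threshold from above (0.34 ± 0.12, edgeR adjusted p = 0.0657) and passed in a fit of the 6 libraries compared (0.0401), and NOP16, PPAN, NIP7 and RRS1 differed by 0.17 to 0.37. GRWD1, a chaperone of a large subunit protein, was at 99.3, 88.1 and 109 CPM under siControl, 92.7, 67.0 and 75.7 under siMondoA, and 104, 50.9 and 125 under siMLX. siMLX replicate 2 was the lowest library, followed by siMondoA replicates 2 and 3, and the difference of -0.33 ± 0.27 did not pass (edgeR adjusted p = 0.372).

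Among the 6 nucleolar chaperones and regulators, NPM1 fell after siMondoA and the other 5 were not called. NPM1 was at 2770, 3390 and 2920 CPM under siControl, 2210, 2430 and 2280 under siMondoA, and 3220, 3370 and 3540 under siMLX. The siMondoA libraries were the 3 lowest. NPM1 fell by 0.39 ± 0.11, to 76.3% of control (edgeR adjusted p = 0.0227). The call was lost without siMondoA replicate 1 (0.0526) or 3 (0.0753) or siControl replicate 2 (0.0905). NCL, an RNA-binding protein of the nucleolus, was at 1640, 1790 and 1770 CPM under siControl and 1680, 1500 and 1610 under siMondoA, which overlapped (-0.12 ± 0.12, edgeR adjusted p = 0.474). GNL3, the regulator MYBBP1A, the nucleolar protein LYAR and the RNA helicase DDX21 differed by 0.10, 0.16, 0.22 and 0.32. Of these, LYAR did not overlap between the groups.

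**Figure D3:**
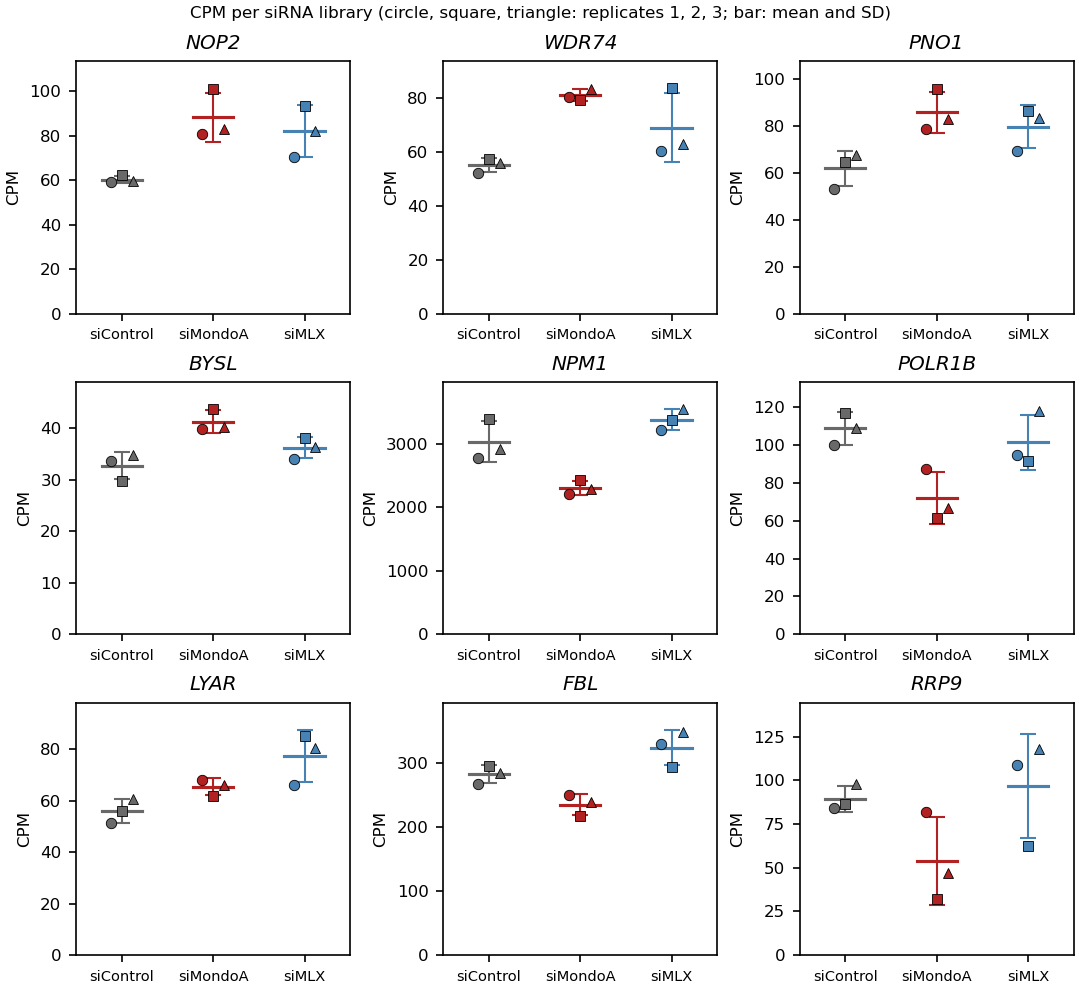
CPM of 9 members in each siRNA library (circle, square and triangle for replicates 1, 2 and 3), with the mean as a line and the SD as a bar; axes start at 0. NPM1 lies between 2210 and 2430 under siMondoA and between 2770 and 3540 elsewhere, and RRP9 ranges from 32.4 to 118.

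Genes of the amino acid and endoplasmic reticulum stress response moved with some of these libraries. Against siControl, 6 such genes (CHAC1, ASNS, DDIT3, TRIB3, SESN2 and PSAT1) had a median log2 difference of 2.60, 3.84 and 3.60 in replicates 1, 2 and 3 of siMondoA and -0.09, 3.82 and 0.25 under siMLX. Their summed level was 150 to 177 CPM under siControl, 702 to 2100 under siMondoA and 168 to 1870 under siMLX, and 6 of 6 rose with siMondoA. The libraries with medians above 3 are those in which RRP9 and GRWD1 were lowest. Those with medians of 2.60 or more are those in which WDR74 was highest and POLR1B lowest, POLR1B in siMLX replicate 2 only just. NOP2 and PNO1 did not divide in this way, as both were higher in siMLX replicate 3 than in siMondoA replicate 1. The part of this response in the values of RRP9, GRWD1 or any other member was not tested. NPM1 followed neither division, being within the siControl range in replicate 2 of siMLX. The median over all members was 0.17, 0.09 and 0.07 under siMondoA and 0.11, 0.14 and 0.29 under siMLX.

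After siMLX, 1 of the 34 members rose, LYAR, and none fell, a share of 2.94% beside 8.41% of all 13001 genes by edgeR's quasi-likelihood test (3.72% rose and 4.69% fell). By the same test 8 members had an unadjusted p under 0.05, beside 26% of all genes. LYAR was at 51.3, 56.1 and 60.5 CPM under siControl, 65.9, 85.2 and 80.4 under siMLX, and 68.1, 61.8 and 66.2 under siMondoA. All siMLX and siMondoA libraries were above siControl, and replicates 2 and 3 of siMLX were the highest. The rise with siMLX was 1.38-fold (0.46 ± 0.12, edgeR adjusted p = 0.0424). The call was lost with library totals in place of TMM scaling (0.0671), without filtering (0.0531), in a fit of the 6 libraries alone (0.0644) and on leaving out any library other than siMLX replicate 1 (0.0773 to 0.158). Without siMLX replicate 1, 3 members rose. The median over members was 0.19 against 0.0177 for all genes, and 32 of 34 members were above 0. In 11 members the groups did not overlap, all 11 with siMLX higher, beside 33.4% of all 13001 genes (2146 higher and 2196 lower).

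The replicate numbers paired siMLX with siControl, and with the number as a block 6 members rose after siMLX and none fell: DKC1, PNO1, NOP2, PPAN, LYAR and DDX21. The block also raised the share called over all 13001 genes, to 14% by edgeR (6.52% rose and 7.44% fell). DKC1 was at 186, 211 and 206 CPM under siControl and 234, 331 and 319 under siMLX, without overlap and with replicates 2 and 3 far above the first. Its difference was 0.55 ± 0.16, edgeR adjusted p = 0.0542 without and 0.0114 with the block. PPAN, a factor of early large subunit assembly, was at 7.64, 5.43 and 7.63 CPM under siControl, 9.64, 11.4 and 11.0 under siMLX and 9.30, 8.98 and 8.41 under siMondoA. Its siMLX difference was 0.63 ± 0.18, adjusted p = 0.0520 without and 0.0464 with the block in edgeR. The siMLX differences of NOP2 (0.45 ± 0.13, edgeR adjusted p = 0.0584) and PNO1 (0.36 ± 0.13, 0.116) went below the threshold with the block (0.0221 and 0.0366), as did DDX21 (0.38 ± 0.17, 0.179 and 0.0323). The authors' deposited table calls 4 members higher after siMLX (DKC1, LYAR, DDX21 and NOP2) and none lower, beside 11.7% of all its genes (5.26% higher and 6.48% lower).

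By role, all 5 snoRNP genes, all 9 small subunit genes, 11 of 12 large subunit genes and all 6 chaperones and regulators were above 0 with siMLX, with role medians of 0.17 to 0.20. The exceptions were GRWD1 (-0.08 ± 0.26) and POLR1B (-0.10 ± 0.15). MYC was at 580, 599 and 732 CPM under siMLX, overlapping siControl. The siMondoA and siMLX values are measured against the same 3 siControl libraries, so agreement between them is not independent. Of those libraries, replicate 1 was low for the members, with 29 of 34 below the siControl mean, and replicate 3 was high, with 30 of 34 above it.

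**Figure D4:**
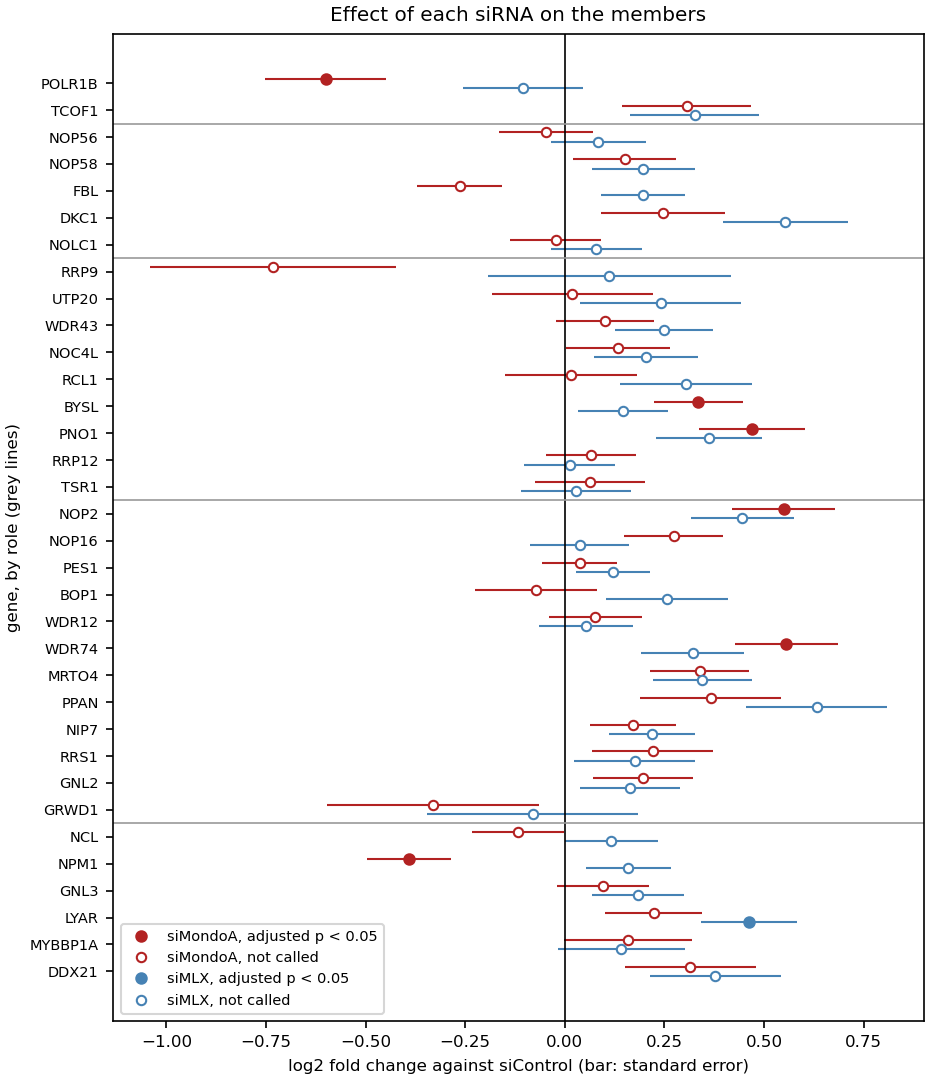
Log2 fold change against siControl of each member with siMondoA (red) and siMLX (blue); bars are standard errors and filled circles have an edgeR adjusted p under 0.05 without a replicate block. With siMLX 32 of 34 circles are right of 0; with siMondoA the called genes lie from -0.60 to 0.56.

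Set directly against siMLX by edgeR's quasi-likelihood test, siMondoA gave 2 lower members, NPM1 and FBL, and none higher, a share of 5.88% beside 12.9% of all genes (6.66% higher and 6.21% lower). Without siMLX replicate 2 or siMondoA replicate 1, 5 members were lower, and without any 1 of the other 4 libraries 1 was. NPM1 was lower by 0.55 ± 0.11 on the log2 scale, at 68.3% of the siMLX level (edgeR adjusted p = 0.00975), and was called without each of the 6 libraries. FBL was at 72.7% of the siMLX level (edgeR adjusted p = 0.0199), a call lost without siMLX replicate 1 (0.0719) or 3 (0.0827) or siMondoA replicate 2 (0.0615) or 3 (0.0671). For POLR1B the difference was -0.50 ± 0.15 (edgeR adjusted p = 0.0546) and for RRP9 -0.84 ± 0.31 (0.0969). Both passed with DESeq2 (0.0278 and 0.0380). The siMondoA and siMLX libraries did not overlap in 5 members, POLR1B, FBL, BYSL, PPAN and NPM1, beside 30.2% of genes.

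The rest of the pathway was described from 141 other genes of ribosome biogenesis, of which all were tested. After siMondoA 10 of 46 other large subunit genes rose and 2 fell, with a median of 0.15. Those with the smallest adjusted p were the helicase DDX55 (0.46 ± 0.10, edgeR adjusted p = 0.00801), MAK16 (0.58 ± 0.14, 0.0127) and the helicase DDX27 (0.50 ± 0.12, 0.0150), and the 2 that fell were SURF6 (-0.40 ± 0.10, 0.0158) and LAS1L (-0.64 ± 0.16, 0.0185). Of 40 other small subunit processome genes 5 rose and none fell, led by HEATR1, KRR1 and FCF1. HEATR1 was at 126, 138 and 152 CPM under siControl, 190, 228 and 221 under siMondoA, and 164, 207 and 226 under siMLX, and rose in both comparisons (0.62 ± 0.14, edgeR adjusted p = 0.0105; 0.52 ± 0.14, 0.0442). All siMondoA and siMLX libraries exceeded the siControl libraries. The share called was 26.1% of the other large subunit genes and 12.5% of the processome genes, beside the 27.2% of all genes given above.

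Other parts of the pathway went both ways after siMondoA. Of 14 other RNA polymerase I genes, RRN3, an initiation factor, rose (0.47 ± 0.14, edgeR adjusted p = 0.0280) and UBTF, which binds the ribosomal DNA, fell (-0.49 ± 0.15, 0.0357). Of 10 cytoplasmic small subunit factors only RIOK3 rose (1.28 ± 0.33, edgeR adjusted p = 0.0176), and of 18 exosome and nuclease genes EXOSC8 rose and EXOSC5 fell. None of 13 other snoRNP and assembly genes was called by edgeR, and 2 had an unadjusted p under 0.05. Of 19 tested MYC targets outside the nucleolus, SHMT2 rose (1.12 ± 0.37, 0.0442) and LDHA (-1.02 ± 0.23, 0.0105) and AIMP2 (-0.55 ± 0.16, 0.0273) fell by edgeR's adjusted p, with a median of -0.11. After siMLX 6 of the 141 genes rose and none fell, TAF1B, HEATR1, DIMT1, DDX55, RBM28 and EBNA1BP2. Of all genes 3.72% rose and 4.69% fell by edgeR's adjusted p. Above 0 with siMLX were 33 of 40 other processome genes, 34 of 46 other large subunit genes and 8 of 13 other snoRNP and assembly genes. Their medians were 0.13, 0.12 and 0.03. Of 19 tested MYC targets outside the nucleolus 16 were above 0, with a median of 0.15, and 3 rose and none fell.

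The drug libraries carry a doubt about their labels. The authors' deposited SBI-477 fold changes were set against a DESeq2 refit of the counts with the replicate number as a term. With the labels as given they differed by a median of 0.195 (log2). With the libraries labelled DMSO 2 and SBI-477 2 exchanged the difference was 0.00446, and over the other 8 exchanges of 1 library per group it was 0.125 to 0.496. The siRNA columns of siMondoA and siMLX were matched as labelled (2.21e-13 and 7.05e-13) by a refit of the same form. TXNIP, a known MondoA target, was at 145, 39.2 and 204 CPM in the libraries labelled DMSO 1, 2 and 3 and at 74.6, 121 and 41.5 in those labelled SBI-477. Libraries keep their labels below, and fold changes and counts of calls are given with all 6 libraries and without both numbered 2.

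As labelled, none of the 34 members and 0 of 14023 genes (0%) passed edgeR's quasi-likelihood test between SBI-477 and DMSO. DESeq2 also called 0 members and 0 genes, and 1 member (UTP20) and 409 genes had an unadjusted p under 0.05 with edgeR. The member median was 0.11 with 26 of 34 above 0, and -0.0334 without DMSO replicate 3. The groups did not overlap in 2 members, POLR1B and UTP20, beside 9.26% of genes. UTP20, a large scaffold of the small subunit processome, was at 134, 123 and 124 CPM in DMSO and 144, 157 and 152 in SBI-477 (0.26 ± 0.09, edgeR adjusted p = 1). Without the libraries numbered 2 its difference was 0.205 ± 0.09 (edgeR adjusted p = 0.126). The DMSO libraries spread widely over the set: the member median against the DMSO mean was -0.02, 0.28 and -0.25, with 29 members above the mean in DMSO 2 and 33 below it in DMSO 3. In SBI-477 it was 0.04, 0.04 and 0.18.

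**Figure D5:**
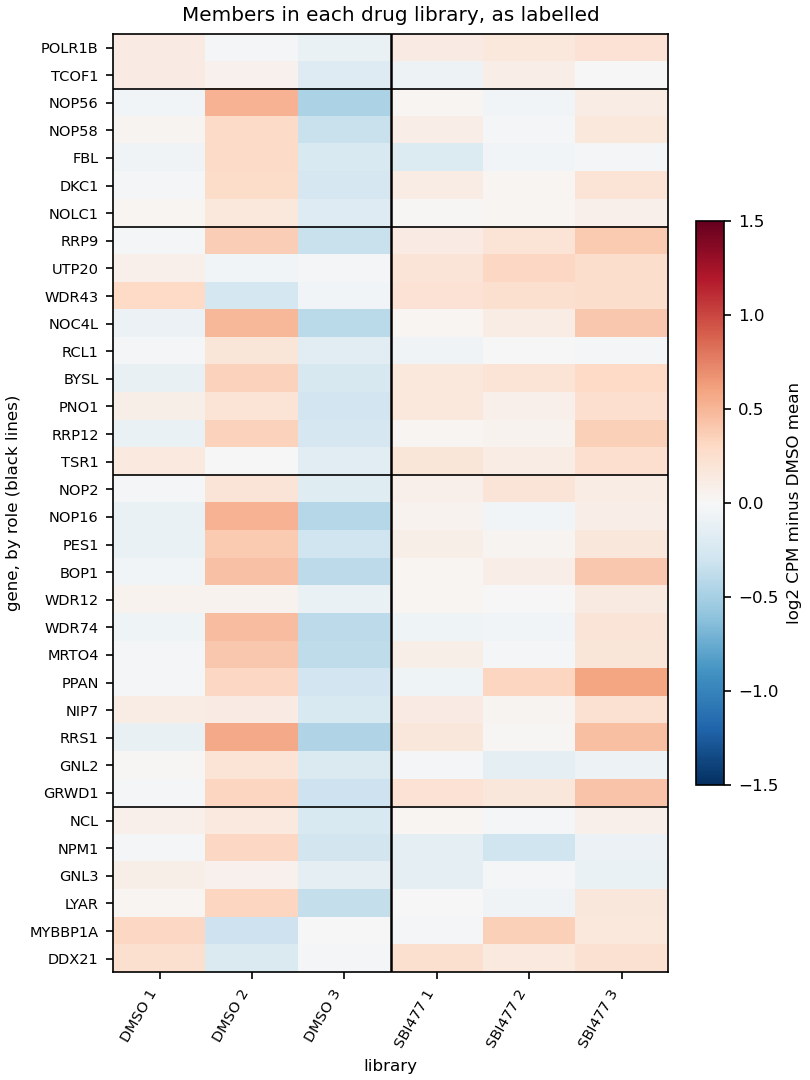
Log2 CPM of each member minus its DMSO mean (colour) in the 6 drug libraries as labelled, with members grouped by role between black lines. DMSO 2 is high for 29 members and DMSO 3 low for 33, while the SBI-477 libraries lie between 0.04 and 0.18 by median.

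Without the libraries numbered 2, 6 members rose with SBI-477 and none fell, and 31 of 34 were above 0 with a median of 0.24. Of all 14232 genes tested in that fit, 18.1% were called (9.07% rose and 9.02% fell). The 6 were the large subunit factors RRS1, GRWD1 and PES1 and the small subunit factors BYSL, RRP9 and NOC4L. RRS1, which helps to place the 5S particle, was at 55.3 and 43.9 CPM in DMSO 1 and 3 and at 67.3 and 82.0 in SBI-477 1 and 3 (0.59 ± 0.13, edgeR adjusted p = 0.0157; 0.16 ± 0.25 with all 6 libraries). The libraries numbered 2 held 88.6 in DMSO and 60.8 in SBI-477, the reverse order. BYSL was at 51.1 and 46.5 CPM in DMSO and 61.3 and 67.5 in SBI-477 (0.40 ± 0.09, edgeR adjusted p = 0.0198, against 0.20 ± 0.16 with all 6 libraries), with 70.1 and 63.3 in DMSO 2 and SBI-477 2. For GRWD1 the 4 values were 168 and 136 in DMSO and 197 and 228 in SBI-477 (0.48 ± 0.12, edgeR adjusted p = 0.0214, against 0.25 ± 0.17 with all 6 libraries), with 212 and 190 in the libraries numbered 2. In each of the 3 genes DMSO 2 was above the other DMSO libraries and SBI-477 2 below SBI-477 3.

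RRP9 (0.44 ± 0.12, edgeR adjusted p = 0.0385), PES1 (0.33 ± 0.09, 0.0398) and NOC4L (0.47 ± 0.14, 0.0494) were also called without the libraries numbered 2. With all 6 libraries their differences were 0.21 ± 0.18, 0.07 ± 0.17 and 0.14 ± 0.23, and the edgeR adjusted p was 1 for each of the 6 genes. RRP9 was at 149, 196 and 120 CPM in DMSO 1, 2 and 3 and at 165, 176 and 199 in SBI-477. NOP2 (0.19 ± 0.09, edgeR adjusted p = 0.155), NPM1 (0.03 ± 0.10, 0.840) and POLR1B (0.15 ± 0.10, 0.288), which had passed with siMondoA, did not pass here. With all 6 libraries they differed by 0.12 ± 0.12, -0.19 ± 0.16 and 0.16 ± 0.10 (edgeR adjusted p = 1 for each). The authors' deposited table, whose drug columns match the exchanged labels, has 10 members higher and none lower (RRS1, NOP16, GRWD1, RRP12, PES1, MRTO4, NOC4L, BOP1, NOP56 and DKC1), beside 20.1% of its genes (10.6% higher and 9.51% lower). RRS1 leads it with a log2 fold change of 0.58 (adjusted p = 0.00134 in the authors' deposited table). Among the other pathway genes in the fit without the libraries numbered 2, 10 of 40 processome genes, 8 of 46 large subunit genes, 2 of 10 cytoplasmic small subunit factors and 1 of 18 exosome and nuclease genes rose, beside 9.07% of all genes, and none of these fell. Of 14 RNA polymerase I genes 1 rose and 1 fell, and none of 13 snoRNP and assembly genes was called by edgeR, with 3 at an unadjusted p under 0.05. Of 19 tested MYC targets outside the nucleolus 5 rose and none fell. Their median was 0.23 with 17 above 0, beside 0.24 for the members, so the shift was not particular to the members. In the same fit 3 of 6 epithelial markers fell, and their part in the members' values was not tested.

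The SBI-477 and siMondoA effects were compared by an interaction term over all 15 libraries as labelled. POLR1B alone of the 34 differed, beside 7.67% of all genes (3.84% higher and 3.83% lower). Its SBI-477 effect exceeded its siMondoA effect by 0.78 ± 0.19 on the log2 scale (edgeR adjusted p = 0.0255). POLR1B was at 170, 154 and 146 CPM in DMSO and 170, 174 and 181 in SBI-477, against the fall with siMondoA given above. These groups would overlap with the 2 libraries numbered 2 exchanged. The difference was 0.78 ± 0.22 (edgeR adjusted p = 0.0405) without both drug libraries numbered 2. It missed the threshold without siMondoA replicate 2 or 3, siControl replicate 2 or 3, or SBI-477 replicate 1 or 3 (adjusted p from 0.0540 to 0.0681). RRP9 differed by 0.96 ± 0.40 (edgeR adjusted p = 0.146), and NOP2 by -0.41 ± 0.18 (0.167). Without both drug libraries numbered 2 these were 1.19 ± 0.45 (edgeR adjusted p = 0.0958) and -0.33 ± 0.18 (0.238), and POLR1B was again the 1 member called.

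Set against the promoter sequences shown, NOP2, PNO1 and BYSL, which rose with siMondoA, hold an E-box near the start. So does LYAR, which rose with siMLX, at 1 of its 2 listed starts. WDR74, which also rose, and POLR1B and NPM1, which fell, have none in the listed windows. RRP9 holds one that begins 5 bases before its start and ends on it. Over the 15 members with the motif the median log2 fold change was 0.16 with siMondoA (3 rose, none fell) and 0.24 with siMLX. Over the 13 without it the medians were 0.08 (1 rose, 2 fell) and 0.12. The ranges overlapped, from -0.73 to 0.55 with the motif and from -0.60 to 0.56 without it for siMondoA. These medians describe members chosen with results known and carry no test.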

How the data were processed

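Kapa libraries were made from 500 ng of PSN-1 RNA and read as 25-base pairs, per the labels' protocols. The submitters' processing notes name TopHat2 2.1.0 and HTSeq 0.6.1 beside bcl2fastq 1.8.4 and edgeR without a version, and the builds hg38 and mm10; strandedness and RNA selection are not given in the sources used here. The authors deposited 1 table per experiment with a raw count per gene symbol and library, per the file headers. Beside the counts, the authors deposited their own log2 fold change with its p-value and adjusted p-value.

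The analysis used edgeR 4.0.16 under R 4.3.3 (quasi-likelihood test, TMM scaling, filterByExpr, Benjamini-Hochberg adjustment over all genes tested, threshold 0.05), with the 9 siRNA libraries in 1 fit, the 6 drug libraries in another and all 15 for the interaction. DESeq2 1.42.0 was an alternative. The steps were tested on simulated data. CPM used TMM factors for genes that passed the filter and library totals alone for the others, and log2 CPM a prior count of 2. Exon lengths and overlaps came from GENCODE on GRCh38 and promoters from RefSeq. Errors are standard errors of log2 fold changes or SDs of 3 libraries. Nothing in the sources says that libraries came from separate cultures, so p-values cover the spread among these libraries alone, and that spread may be technical. No 2 libraries of a group agreed within sampling noise.

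Residuals of same-numbered libraries correlated at 0.357, 0.236 and 0.476 between siMLX and siControl, so the numbers were taken to pair them, a hint from the data as the labels state no shared day. By the same measure the numbers did not clearly pair siMondoA with siControl (0.124, 0.081, 0.042) or siMondoA with siMLX (0.634, 0.504, -0.159). Different-numbered siMondoA and siControl libraries correlated at -0.181 to 0.169. A refit with the replicate number as a term still matched the deposited fold changes of siMondoA as well as siMLX. Same-numbered DMSO and SBI-477 libraries correlated at -0.386, -0.638 and -0.605 as labelled, and different-numbered ones at -0.531 to 0.675. With the labels of DMSO 2 and SBI-477 2 in doubt, these values cannot decide pairing there.

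All members could be named. Those called without overlap of the groups' libraries, up to 4 per direction and comparison, are given in full beside the most abundant uncalled members of each role, and other lists by up to 3 genes per direction with the smallest adjusted p. DKC1, PPAN, RRP9, GRWD1, UTP20 and the genes called only in the drug subset were added after their values were seen. The members and lists were chosen with earlier results of these data known. Alternatives were other scaling, DESeq2, no filter, a replicate block, only the libraries compared, and leaving out libraries.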

Additional observations from a re-analysis of the deposited data

Results flagged for a closer look

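POLR1B was the 1 member whose effect differed between the drug and the siRNA experiment by a test of the difference itself. The SBI-477 effect minus the siMondoA effect was 0.7786 on the log2 scale, with an edgeR adjusted p of 0.0255 over 13681 genes. It was called in 12 of 18 alternatives. The 3 siMondoA libraries were all below siControl and, as labelled, the 3 SBI-477 libraries all at or above the DMSO libraries. With DMSO 2 and SBI-477 2 exchanged the drug groups would overlap. The authors' deposited table, whose drug columns match that exchange, gives POLR1B a log2 fold change of 0.055 (adjusted p = 0.779 in that table). The experiments differ in delivery, control and depth as well as in the means of acting on MondoA, which cannot be told apart.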

How the results depend on the processing

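No value that passed the test changed direction under any alternative run, but without 1 library the SBI-477 member median ran from -0.0334 to 0.2109 and the interaction median from -0.136 to 0.078. With siMondoA the median over members stayed between 0.0899 and 0.1852 when libraries were left out in turn, while the members that rose numbered 1 to 3, those that fell 0 to 2 and the genes called 1745 to 3884, beside 4, 2 and 3532 with all libraries. With siMLX 0 to 3 members rose and 254 to 833 genes were called without 1 library, beside 1 and 1094. Library totals alone gave 0 members and 1018 genes, DESeq2 4 members and 1651 genes, and the replicate block 6 members and 1815 genes. Against siMLX, siMondoA gave 0 to 1 higher members, 1 to 5 lower members and 670 to 2970 genes without 1 library, beside 0, 2 and 1673. DESeq2 gave 4 lower members and 2246 genes, the replicate block 4 lower members and 2606 genes, and the 6 libraries alone 1 lower member and 706 genes. Leaving out both drug libraries numbered 2 gave 6 members that rose and 2575 genes with SBI-477, beside 0 and 0, and 1595 genes for the interaction. The interaction gave 1781 genes with DESeq2, and 0 to 2 members and 423 to 1680 genes without 1 library, beside 1 and 1049. With a replicate block siMondoA had 6 members that rose and 3 that fell, a change of no more than 1.5 times. That fit called 4551 of 13001 genes, beside 3532 without the block. The members added were MRTO4 (edgeR adjusted p = 0.0423), DDX21 (0.0281) and RRP9 (0.022). Residuals of same-numbered siMondoA and siControl libraries correlated only weakly (0.124, 0.081 and 0.042), which leaves their pairing undecided. The cause of these changes was not tested; leaving out libraries lowers their number by construction. With all libraries, no member with a difference under 0.3 on the log2 scale passed edgeR's test in any comparison without a block. Reads of 25 bases limit NPM1, PPAN and members that overlap other genes.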
